A study of Mus musculus with 8 samples.

Results

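The heat shock and chaperone genes are described here as the mouse genes whose symbol starts with Hsp or Dnaj and that had at least 50 unique molecular identifiers (UMIs, each standing for 1 captured RNA molecule) over all cells of the experiment. Of 27998 genes in the count matrix, 75 symbols started with Hsp or Dnaj. Among these, 58 genes passed the limit and are the members described below, 17 stayed under it, and 5 of the 17 had no UMI at all. Hspb6, with 265 UMIs, was the member nearest above the limit, and Hspa1l, with 34 UMIs, was the gene nearest below it. The 58 members held 801312 of 98669511 UMIs, or 0.812%.

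The cells were CD45+ leukocytes sorted, with enrichment of CD8+ T cells, from B16-OVA tumors (the B16 melanoma line expressing ovalbumin) grown in C57BL/6 mice. Mice had received adoptive cell transfer (ACT) of OT1 cells, CD8+ T cells whose receptor recognizes ovalbumin, without prior depletion of host lymphocytes. The OT1 cells were untransduced, or they secreted PD1d (the PD-1 ectodomain fused to an antibody Fc part) with IL-2v (an IL-2 variant that binds the IL-2Rβγ receptor), PD1d with IL-33, or all 3, the last given as a mixture of PD1d/IL-2v and PD1d/IL-33 cells. The last, PD1d/IL-2v/IL-33, is called combination ACT below. Of the 8 libraries, 3 were of combination ACT, collected 5, 12 and 26 days after cell transfer, and 2 were of untransduced ACT, from days 5 and 12. Each of PD1d/IL-2v ACT and PD1d/IL-33 ACT gave 1 library at day 12, and 1 library of tumors without ACT carries the label non-treated and day 5. Each library came from pooled tumors, so 1 library stands for each condition and day, and differences between libraries have no replicate check. All groups share the strain, the tumor and the sort, and all but the non-treated group share the transferred OT1 receptor. CD8 T cells below hold transferred and host cells together.

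Chaperones bind unfolded or newly made proteins and help them reach their folded shape. Hsp70 proteins bind and release short stretches of a client in a cycle driven by ATP, J-domain proteins (the Dnaj genes) deliver clients and set off that cycle, and Hsp110 proteins exchange the nucleotide that ends it. Hsp90 proteins work later, on signaling proteins such as kinases and receptors, and separate sets serve the endoplasmic reticulum (ER) and the mitochondria. Part of the family is induced by the transcription factor HSF1 when proteins unfold in the cytosol, through heat shock elements in the promoter, whereas ER chaperones are induced by the unfolded protein response. Isolating cells from tissue with enzymes is known to induce the HSF1 set and immediate early genes such as Fos and Jun, and heat shock genes were kept out of the variable genes used for clustering in the study's own processing.

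By role, the members comprised 5 cytosolic Hsp70 genes (234775 UMIs), 2 cytosolic Hsp90 genes (204310 UMIs), 13 ER chaperones (108086 UMIs), 9 mitochondrial chaperones (100267 UMIs), 9 class A and B J-domain proteins of the cytosol and nucleus (70949 UMIs), 12 class C J-domain proteins (54053 UMIs), 3 Hsp110 genes (21652 UMIs), 3 small heat shock protein genes (3434 UMIs) and 2 other genes with Hsp symbols (3786 UMIs). The constitutive genes held most molecules: Hspa8, the constitutive Hsp70, had 200297 UMIs, and Hsp90ab1, the constitutive cytosolic Hsp90, had 161882. Hspa1a, the main inducible Hsp70 gene, had 17576.

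The promoters of 5 members are printed because they carry the 2 induction elements named above or show why a pair of genes is hard to tell apart. Sequences are from RefSeq (GRCm38.p6), read 5′ to 3′ on the gene's strand. Capitals mark 2-unit heat shock elements, GAANNTTC or TTCNNGAA, in Hspa1a, Hspa1b, Hspe1 and Hsph1, and in Hspa5 the parts CCAAT and CCACG, 9 bases apart, of the ER stress response element. The windows are chr17:34972157-34972306 (minus strand) for Hspa1a, chr17:34959239-34959388 (minus strand) for Hspa1b, chr1:55087998-55088147 (plus strand) for Hspe1, chr5:149636287-149636305 (minus strand, within the transcribed part) for Hsph1 and chr2:34771940-34772089 (plus strand) for Hspa5.
Hspa1a: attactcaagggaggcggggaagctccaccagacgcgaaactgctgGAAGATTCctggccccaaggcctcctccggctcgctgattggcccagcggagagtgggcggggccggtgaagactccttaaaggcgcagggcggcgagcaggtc
Hspa1b: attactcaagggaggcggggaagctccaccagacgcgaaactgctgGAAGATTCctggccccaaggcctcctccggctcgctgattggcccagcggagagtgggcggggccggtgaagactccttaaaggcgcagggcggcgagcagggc
Hspe1: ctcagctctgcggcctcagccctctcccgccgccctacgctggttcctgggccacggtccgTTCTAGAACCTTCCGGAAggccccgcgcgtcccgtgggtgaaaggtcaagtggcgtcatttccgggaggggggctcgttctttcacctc
Hsph1: gcagaTTCTGGAAAGTTCt
Hspa5: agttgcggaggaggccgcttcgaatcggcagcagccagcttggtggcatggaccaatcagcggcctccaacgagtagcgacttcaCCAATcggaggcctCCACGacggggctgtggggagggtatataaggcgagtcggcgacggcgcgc

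The element of Hspa1a and of Hspa1b began 104 bases before the start of transcription in both genes. The 250 bases before the start were identical at 247 of 250 positions between them (98.8%), and the 150 bases printed at 149. Because the 2 genes are near-identical copies, a read may fit both, and each value for one is uncertain with respect to the other. The counts do not show how such reads were handled. Hspd1 and Hspe1 overlap each other in the annotation, as 24 members in all overlap another gene. These overlaps include genes on opposite strands, and whether they affect the counts was not tested. Of the 58 members, 47 had an entry in the RefSeq promoter table (250 bases before to 50 after the start). A 2-unit heat shock element stood in 13 of 47 (27.7%), against 17% of 27025 genes in the table, and 3 units in a row, that is both 8-letter words sharing 3 letters, stood in 4 of 47 (8.51%: Dnajb6, Hspd1, Hspe1 and Hsph1), against 0.662%. The elements of Hspd1 and Hspe1 are the same stretch of bases, counted for both genes. The near-identical promoters of Hspa1a and Hspa1b likewise both count among the 13. The ER stress response element, searched like the others on both strands, stood in 3 of 47 (6.38%: Hspa5, Hsp90b1 and Dnajc3), against 0.137% of genes, and each match holds a CCAAT word, which on its own stood in 44.7% of members and 41.1% of genes. The word TATAAA stood in 3 of 47 members and in 15.7% of genes.

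Of 15700 barcodes, 12828 passed the cell filter and 9488 of these fell in 1 of 4 gates set on raw marker UMIs: 4649 CD8 T, 1113 CD4 T, 2322 NK and 1404 myeloid cells. Libraries held 400 to 3700 barcodes and 1387032 to 24917112 UMIs, and the median UMIs per cell ranged from 4403.5 to 7297. The 2 libraries of 400 barcodes, non-treated and untransduced ACT at day 12, gave 69 and 37 CD8 T cells and 29 and 16 myeloid cells. Markers not used in the gates separated the types in part. Summed T cell markers came to 2408 CPM (UMIs relative to the total of the cells summed, the usual RNA-seq scale) in CD8 T cells, 1124 in NK cells and 20.2 in myeloid cells, NK markers to 11235 in NK cells against 1030 in CD8 T cells, and melanoma markers to between 0.913 and 2.75 in the 4 types. The 4 further CD8 T cell markers, mostly Nkg7, did not set CD8 T cells (2848 CPM) apart from NK cells (2726 CPM), and the 6 further myeloid markers came to 9182 CPM in myeloid and 5207 CPM in NK cells, there mostly from Tyrobp and Fcer1g. The members' share of UMIs lay between 0.697% (combination ACT at day 5) and 0.908% (PD1d/IL-2v ACT at day 12). Of 12733 barcode sequences, 95 occurred in more than 1 library. The aggregation table placed the libraries in 5 runs: untransduced and combination ACT at day 12 shared 1, the PD1d/IL-2v and the PD1d/IL-33 library shared 1, non-treated and day 26 shared 1, and each of the day 5 ACT libraries had its own. What the run identifier stands for is not given there.

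In CD8 T cells, the inducible pair varied most between libraries and the constitutive genes little. Hspa1a stood at 20.7 CPM in non-treated tumors, at 82.5 and 251 in untransduced ACT at days 5 and 12, at 156 in PD1d/IL-2v ACT, at 274 in PD1d/IL-33 ACT, and at 64.0, 79.8 and 109 in combination ACT at days 5, 12 and 26. Hspa1b, in the same order, stood at 23.3, 43.6, 156, 68.6, 262, 43.5, 72 and 65.7 CPM. Both genes were lowest in non-treated tumors and highest in PD1d/IL-33 ACT, with untransduced ACT at day 12 next. After 10 CPM were added to every level, the highest library exceeded the lowest 9.25-fold for Hspa1a and 8.18-fold for Hspa1b. Dnajb9, an ER J-domain protein, followed at 4.01-fold, its lowest value resting on 1 UMI, with Hspa5, the ER Hsp70 known as BiP, at 2.87-fold and Hsph1, an inducible Hsp110, at 2.66-fold. These 5 ranges were the largest of the 43 members with at least 400 UMIs in CD8 T cells, and the smallest were 1.26-fold (Hspb11), 1.29-fold (Dnajc3) and 1.41-fold (Dnajb4). Values for non-treated tumors rest on few molecules, 8 UMIs of Hspa1a and 9 of Hspa1b.

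**Figure D1:**
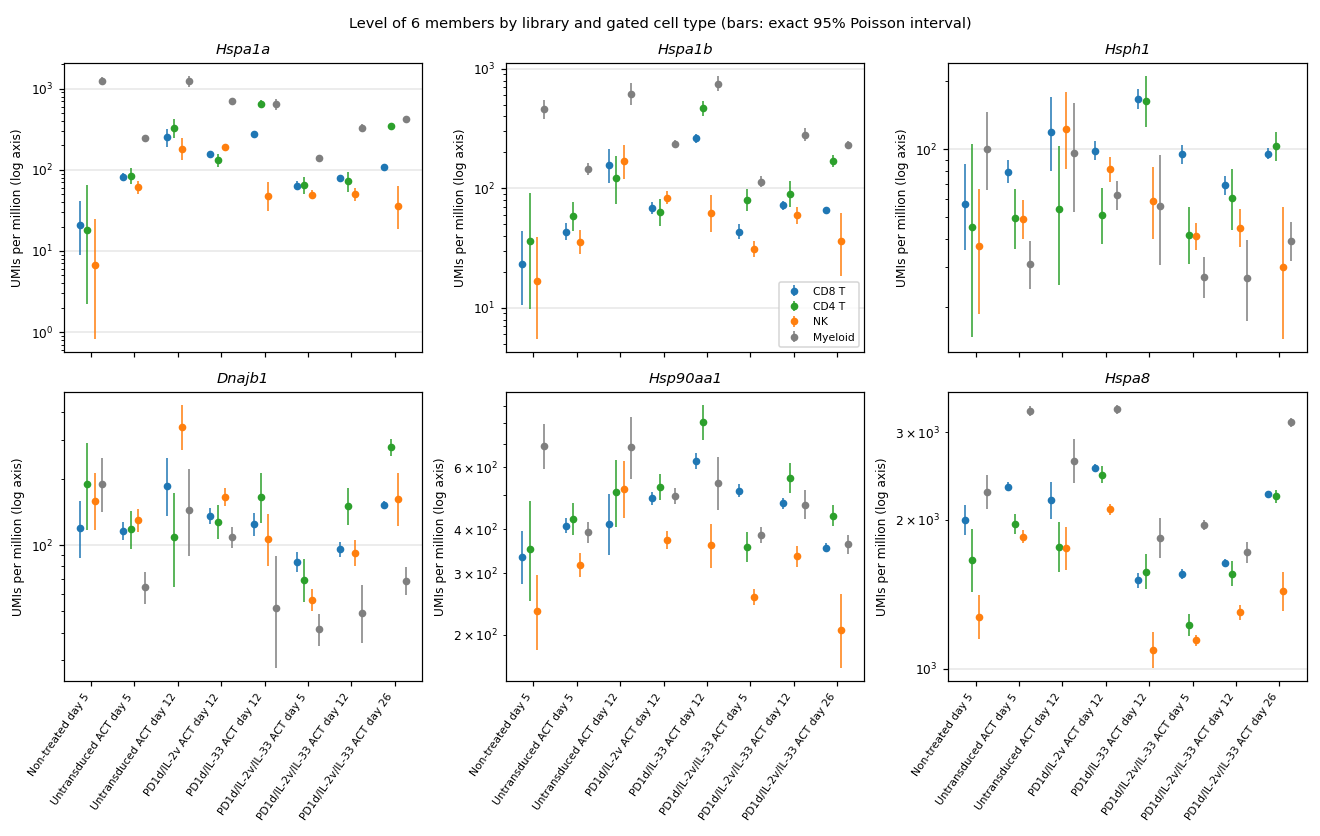
CPM on a log axis of 6 members in the 8 libraries (x axis), with 1 color per gated cell type and bars for the 95% Poisson interval of the count. Hspa1b lies highest in myeloid cells in all 8 libraries, and Hspa1a in all but PD1d/IL-33 ACT, where CD4 T cells are level with them, whereas Hspa8 stays between 1092 and 3338 CPM in every type and library.

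The other stress-inducible members shared that order only in part. Hsph1 ranged from 56.9 CPM in non-treated tumors to 168 in PD1d/IL-33 ACT, with 119 in untransduced ACT at day 12. Hsp90aa1, the inducible cytosolic Hsp90, ranged from 333 CPM in non-treated tumors to 626 in PD1d/IL-33 ACT. Dnajb1, the J-domain partner of inducible Hsp70, was lowest in combination ACT at day 5 (83.6 CPM) and highest in untransduced ACT at day 12 (185 CPM), and stood at 124 CPM in PD1d/IL-33 ACT. Hsph1 and Hsp90aa1 thus had their extremes in the same libraries as Hspa1a, and Dnajb1 did not. Dnaja1, another J-domain partner of Hsp70, was highest in non-treated tumors (457 CPM) and lowest in combination ACT at day 5 (210.3 CPM). Hspb1, the small heat shock protein Hsp27, stood at 0 to 15.6 CPM in CD8 T cells. Dnaja4 ranged from 9.66 to 23.0 CPM and Dnajb4 from 11.8 to 20.7 CPM.

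Among the constitutive and organelle chaperones of CD8 T cells, Hspa8 ranged from 1511 CPM in PD1d/IL-33 ACT to 2548 in PD1d/IL-2v ACT, and Hsp90ab1 from 1543 to 2292. The mitochondrial chaperonin subunit Hspe1 ranged from 395 to 703 CPM and its partner Hspd1 from 132 to 236 CPM. The ER members Hspa5 and Hsp90b1 (the ER Hsp90, Grp94) had different low libraries: Hspa5 was lowest in untransduced ACT at day 12 (144 CPM, 35 UMIs) and at day 26 (169.5 CPM), and Hsp90b1 lowest at day 26 (245 CPM) and highest in combination ACT at day 12 (452 CPM). The Hsp110 gene Hspa4 ranged from 97.6 to 176 CPM, the J-domain gene Dnajb6 from 163 to 248 CPM and the mitochondrial Dnajc15 from 145 to 282 CPM. None of these levels varied as widely as those of the inducible pair.

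PD1d/IL-33 and PD1d/IL-2v ACT at day 12, which came from the same run, were compared first. With 1 library each there is no test. Intervals below cover counting error only, and a gene was counted as past 2-fold when the log2 ratio after adding 10 CPM was at least 1 in size. In CD8 T cells, 1 of 49 members was past 2-fold higher with PD1d/IL-33, against 1.67% of 7777 genes, and 0 were lower, against 1.39%. The member was Hspa1b, at a log2 ratio of 1.79 (95% interval 1.61 to 1.98). Hspa1a reached 0.77 (0.62 to 0.92) and Hsph1 0.71, whereas Hspa8 was at -0.75 and Hspa5 at -0.67. The ratio of Hspa1a was 0.26 when cycling cells were left out and 0.38 when all cells were thinned to 2000 UMIs, and that of Hspa1b stayed between 1.30 and 1.92 in the settings that kept it apart from Hspa1a. The median over the members was -0.05 and over all genes -0.04. Summed, as a read may fit both of these near-identical copies, Hspa1a and Hspa1b had a log2 ratio of 1.22. Of the other lists, 0 of 16 HSF1 factors and co-chaperones and 0 of 18 genes of the unfolded protein response were past 2-fold, and 1 of 14 immediate early genes was higher and 2 lower. The 7 CCT chaperonin subunits had a median of -0.67, with 0 past 2-fold.

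In the other types the same comparison gave other values for Hspa1a. CD4 T cells had 649.9 CPM with PD1d/IL-33 and 131 with PD1d/IL-2v (log2 ratio 2.22, 1.93 to 2.52), and NK cells had 47.6 and 192 (-1.81, -2.32 to -1.32). Myeloid cells had 649 and 703 CPM (-0.11, -0.35 to 0.11). By counting error only, the Hspa1a ratio was upward in CD4 and CD8 T cells, downward in NK cells and within counting error in myeloid cells. These intervals leave out that few cells held most Hspa1a UMIs, as described below. In CD8 T cells the ratio was also smaller without cycling cells or after thinning. The difference between types was not tested. For Hspa1b the log2 ratios were 1.79 in CD8 T, 2.70 in CD4 T, -0.36 in NK and 1.64 in myeloid cells. These rest on 78 CD4 T, 121 NK and 39 myeloid cells in the PD1d/IL-33 library.

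Combination and untransduced ACT at day 12 also shared a run. Of 47 members compared in CD8 T cells, 2 were past 2-fold higher with the combination, against 6.08% of 7652 genes, and 2 were lower, against 2.51%. The lower ones were Hspa1a (79.8 against 251 CPM, log2 ratio -1.54, -1.90 to -1.15) and Hspa1b (72 against 156 CPM, -1.02, -1.47 to -0.54). The ratio of Hspa1b was -0.69 without cycling cells and -0.74 without the 1 cell per library with most of its UMIs. It also fell short of 2-fold after TMM scaling and when the gate asked for 2 UMIs of Cd8a or Cd8b1. The higher ones, Dnajb9 (1.59, 0.36 to 2.09) and Dnajc13 (1.01, -0.13 to 1.75), rest on 1 and 2 UMIs in the untransduced library. Hspa1a was lower with the combination in all 4 types, at -1.54 in CD8 T, -2.04 in CD4 T, -1.69 in NK and -1.87 in myeloid cells. The values outside CD8 T cells rest on 29 CD4 T, 50 NK and 16 myeloid cells in the untransduced library. Few cells held most Hspa1a UMIs, so each value can hang on very few cells. Of the 10 cycling markers, 7 were past 2-fold higher with the combination, cycling cells made up 31.6% of its CD8 T cells and 13.5% of the 37 in the untransduced library, and the part of this in the ratios above was not tested beyond leaving those cells out.

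The remaining comparisons crossed runs, so that run and treatment or day cannot be told apart in them, and several share the combination library of day 12. Against untransduced ACT at day 5, combination ACT had 0 of 52 members past 2-fold higher, against 1.75% of 8423 genes, and 0 lower, against 1.51%. The lowest named member was Hspa5 at -0.70 (-0.81 to -0.59), 261 against 431 CPM, and Hspa1a stood at -0.32 (-0.53 to -0.11). Against PD1d/IL-2v ACT at day 12, 0 of 51 members were past 2-fold in either direction, against 1.15% of 8791 genes higher and 1.1% lower, with Hspa1a at -0.89 (-1.04 to -0.74) and Hspa1b at 0.06. Against PD1d/IL-33 ACT at day 12, 0 of 51 members were higher, against 1.11% of 8269 genes, and 3 were lower, against 0.46%. These were Hspa1b (-1.73, -1.89 to -1.56), Hspa1a (-1.66, -1.82 to -1.5) and Hsph1 (-1.17, -1.35 to -0.98), all of the stress-inducible list, of which 11 could be compared. Under the cell filter of the study's later experiment, only Hspa1b of the 3 stayed past 2-fold, at -1.06.

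Over time in combination ACT, no member differed past 2-fold in CD8 T cells. From day 5 to day 12, 0 of 51 were higher, against 0.376% of 8765 genes, and 0 lower, against 0.24%. Hspa1a was at 0.28 (0.09 to 0.47) and Hspe1 at -0.39 (-0.46 to -0.32). From day 12 to day 26, 0 of 57 were higher, against 1.55% of 9775 genes, and 0 lower, against 1.64%. Among the ER chaperones, Hsp90b1 was at -0.86 (-0.93 to -0.79) and Hspa5 at -0.57 (-0.66 to -0.48), and 2 of 18 genes of the unfolded protein response were past 2-fold lower. Dnajb1 stood at 0.62 (0.50 to 0.74) and Hspa8 at 0.46 (0.43 to 0.49). In CD4 T cells Hspa1a stood at 344 CPM at day 26 and 72.1 at day 12 (2.11, 1.74 to 2.49), and in CD8 T cells the ratio was 0.40 (0.27 to 0.53). Untransduced ACT at day 5 against non-treated tumors had 1 of 44 members higher, against 1.8% of 6825 genes, and 0 lower, against 0.586%. The member was Hspa1a (1.59, 0.85 to 2.30), on 8 UMIs in 69 non-treated cells, and it was at 0.85 once cells were thinned and at 0.29 under the later filter. In myeloid cells the same ratio was -2.29 (-2.48 to -2.09), and 1 of the 29 non-treated myeloid cells held 230 of their 335 Hspa1a UMIs (68.7%).

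Differences between libraries of the same run and of different runs were of like size in CD8 T cells. Every pair that shared a run also differed in treatment, so no pair measures the run alone, and a run effect was not tested. Of 28 pairs of libraries, 3 shared a run and 25 did not. In CD8 T cells the median absolute log2 difference over the 43 members with at least 400 UMIs was 0.300 within runs and 0.335 between them, and over 6857 genes it was 0.322 and 0.320. The difference between runs was the larger one for 22 of 43 members (51.2%) and 43.9% of all genes. In NK cells it was the larger one for 13 of 32 members (40.6%, against 42.6% of all genes), in CD4 T cells for 10 of 25 (against 37.6%) and in myeloid cells for 4 of 30 (13.3%, against 32.9% of all genes). Of the 3 pairs within a run, 2 hold a library of 400 barcodes, and without those libraries the count in CD8 T cells was again 22 of 43, on 1 pair within a run and 14 between.

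Few cells carried most of the Hspa1a and Hspa1b transcripts. Among CD8 T cells, 663 of 4649 (14.3%) had a UMI of Hspa1a, and the 233 cells with most, 5% of the total, held 77.9% of its UMIs. The same share of cells held 71.2% for Hspa1b, 39.6% for Hsph1, 35.0% for Dnajb1, 32.3% for Hsp90aa1 and 20.5% for Hspa8. Ranked by depth alone, the deepest 5% held 15.8% of all UMIs, so the inducible pair lay well above and Hspa8 near the depth of the cells. For Hspa1a the share was 66.8% in CD4 T, 95.1% in NK and 65.2% in myeloid cells. Such shares also rise when few cells have any UMI of a gene, which the depth ranking does not take up. An Hspa1a UMI was seen in 174 of 2322 NK and 455 of 1404 myeloid cells. Differences in these shares between types or genes thus reflect low counts in part. The highest CD8 T cell had 63 Hspa1a UMIs and the highest myeloid cell 230. Hspb1 was an extreme case: 36 of 4649 CD8 T cells (0.774%) had a UMI, and 1 of 29 myeloid cells of the non-treated library held 89.6% of its 134 Hspb1 UMIs there.

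**Figure D2:**
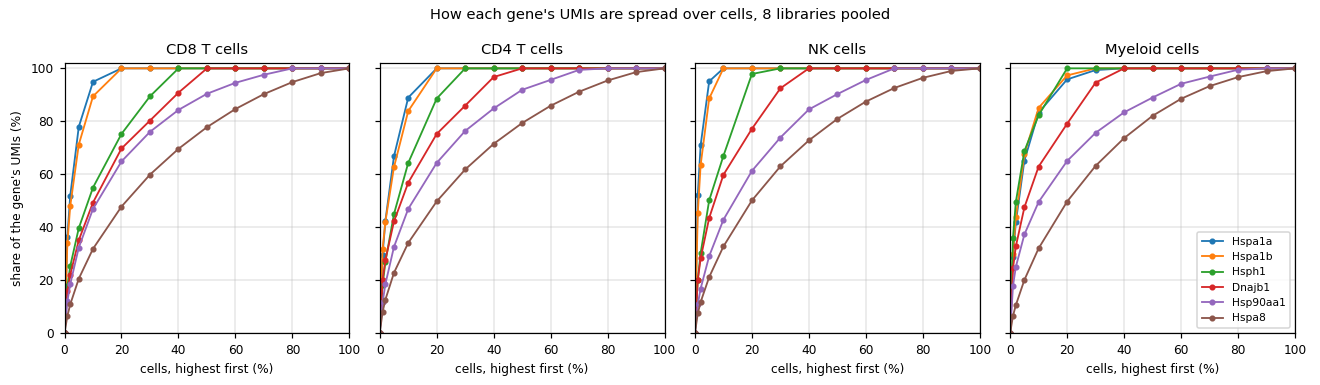
Cumulative percent of a gene's UMIs (y axis) against the percent of cells, ranked from the cell with most UMIs of that gene (x axis), in each gated type over the 8 libraries, for 6 members. Hspa1a and Hspa1b reach most of their UMIs within the top 5% of cells, as does Hsph1 in myeloid cells (68.8%). Hspa8 has 20.5% of its UMIs there in CD8 T cells.

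After thinning every cell to 2000 UMIs, which left no cell out, 9.08% of CD8 T cells (95% Clopper-Pearson interval 8.27 to 9.94), 14.4% of CD4 T, 5.21% of NK and 21.1% of myeloid cells had an Hspa1a UMI. Unthinned, the shares were 14.3%, 18.1%, 7.49% and 32.4%. By the same rule Apoe, a macrophage transcript, was seen in 0.323% of CD8 T, 0.539% of CD4 T and 0.301% of NK cells. Gzma, a lymphocyte transcript, was seen in 3.13% of myeloid cells. These shares cannot gauge free Hspa1a RNA. The lymphoid gates had left out cells with a Lyz2 or Csf1r UMI, and the myeloid gate cells with Cd3, Cd8b1 or Ncr1 UMIs. The part of free RNA in the Hspa1a shares was not tested. By library, the thinned share in CD8 T cells was 2.90% in non-treated tumors (0.353 to 10.1, on 69 cells), 2.98% and 16.2% in untransduced ACT at days 5 and 12, 13.8% in PD1d/IL-2v ACT, 12.9% in PD1d/IL-33 ACT and 3.94%, 7.65% and 10.3% in combination ACT at days 5, 12 and 26. The 3 libraries labelled day 5 were the lowest, each belonged to another run, and the PD1d/IL-2v and PD1d/IL-33 libraries had like shares although their Hspa1a levels were 156 and 274 CPM.

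**Figure D3:**
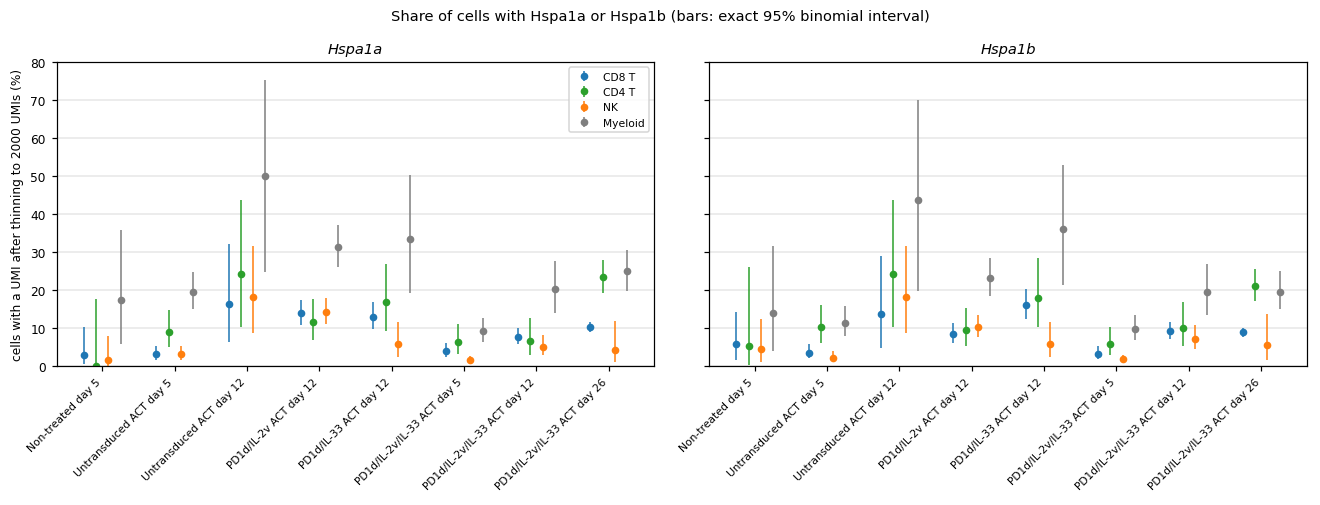
Percent of cells with at least 1 UMI of Hspa1a and of Hspa1b after thinning each cell to 2000 UMIs (y axis), by library (x axis) and gated type, with 95% Clopper-Pearson bars. In CD8 T cells the Hspa1a share lies between 2.90% and 16.2%, lowest in the 3 day 5 libraries.

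Types were compared by summing the counts of each type within a library and testing those sums over libraries, with the library as a block, by edgeR's quasi-likelihood test with Benjamini-Hochberg adjustment over all genes tested. A gene was called when the adjusted p was under 0.05. This asks how the types differ within the same tumors, whatever the treatment.

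Myeloid cells had more inducible Hsp70 and ER chaperone transcripts than CD8 T cells and fewer transcripts of 6 of 9 class A and B J-domain partners. All 58 members were tested over 7 libraries. Higher in myeloid cells were 16 members, against 30.6% of 11032 genes, and lower were 19, against 35.8%, so the count itself lay near that of all genes. Hspa1a was higher by 2.15 on the log2 scale (SE 0.35, adjusted p 6.45e-05, in 7 of 7 libraries) and Hspa1b by 2.02 (SE 0.22, adjusted p 1.38e-06). The per-library log2 ratio of Hspa1a ran from 1.21 to 6.14, the last in non-treated tumors. Of the 13 ER chaperones, 9 were higher and 2 lower, among them Dnajb14, an ER membrane J-domain protein, at 2.69 (SE 0.19, adjusted p 8.46e-09), Hspa5 at 0.97 (SE 0.13, adjusted p 1.1e-05) and Hsp90b1 at 0.64 (SE 0.11, adjusted p 9.97e-05). Of 18 genes of the unfolded protein response, 14 were higher and 1 lower. Hspbap1, a protein that binds a small heat shock protein, was higher at 0.94 in 6 of 7 libraries.

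Of the 9 class A and B J-domain proteins, 6 were lower in myeloid cells and 0 higher. Dnaja4, an HSF1-responsive co-chaperone, was lowest at -4.84 (SE 0.39, adjusted p 4.48e-08), with 0 to 0.911 CPM in the myeloid cells of the 8 libraries (0 UMIs in 5 of them) against 9.66 to 23.0 CPM in CD8 T cells. Dnajb4 was at -1.09, Dnajb6 at -0.62, Dnajb1 at -0.58 (adjusted p 0.0161) and Dnaja1 at -0.43, and the call of Dnajb1 was lost without untransduced ACT at day 5, without combination ACT at day 12 and without the same at day 26. Dnajb13, known from the sperm flagellum, was at -3.74, and Dnajc9, a J-domain protein that handles histones, was at -2.92 (SE 0.20, adjusted p 6.31e-09), and all 10 cycling markers were lower in myeloid cells as well. Hsph1 (-0.99), Hspd1 (-0.86) and Hspe1 (-0.62) were lower in 6 of 7 libraries, so the stress-inducible list split, with 3 of 12 members higher and 7 lower. All 15 immediate early genes linked to dissociation were higher in myeloid cells, and their part in the Hsp70 difference was not tested. Of the mitochondrial chaperones, 4 of 9 were lower, with Dnajc15 at -1.39 (SE 0.12), and 1 was higher. The ER members that were lower were Dnajc1, at -1.22, and Dnajc18.

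NK cells had lower levels than CD8 T cells for 18 of 58 members, against 20.4% of 10354 genes, and higher for 6, against 19.5%, over 8 libraries. All 10 cycling markers were lower in NK cells too, with a median of -1.46, and 9 of 15 immediate early genes were higher and 2 lower. Their part in the members' differences was not tested. Lower were both cytosolic Hsp90 genes (Hsp90ab1 -0.65, SE 0.08, adjusted p 1.61e-06; Hsp90aa1 -0.59), the chaperonin subunits Hspe1 (-0.64, SE 0.09, adjusted p 8.78e-06) and Hspd1 (-0.60), and Hspa8 (-0.50, SE 0.08). Hspa1a was lower by edgeR's test at -0.70 (SE 0.20, adjusted p 0.00961, in 7 of 8 libraries). Hspa1b was at -0.49 (adjusted p 0.0353), a call that was lost without PD1d/IL-33 ACT, without day 26, or without both libraries of 400 barcodes. Of the stress-inducible list, 7 of 12 were lower and 1 was higher: Dnajb4, at 1.14 (SE 0.12, adjusted p 2.55e-07), with 25.2 to 57.5 CPM in NK cells and 11.8 to 20.7 in CD8 T cells. Hspa2, an Hsp70 best known from the testis, was higher at 1.28 (SE 0.21), followed by Dnajb2 (0.89), Hspa13 (0.72), and Dnajc14 (0.37), whose call was lost without any 1 of 4 libraries of ACT (PD1d/IL-2v, PD1d/IL-33, and the combination at days 5 and 12) or without untransduced ACT at day 5. The largest differences downward were those of Dnajb13 (-2.04), Hspb11, a subunit of the machinery that builds cilia (-1.34), Hspbp1, a nucleotide exchange factor of Hsp70 (-1.15), Dnajc9 (-1.10) and Hspbap1 (-0.98, lost without PD1d/IL-2v ACT). Of 9 mitochondrial chaperones 4 were lower and 0 higher.

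CD4 T cells had lower levels than CD8 T cells of several mitochondrial chaperones. Lower were 11 of 57 members, against 13.1% of 9549 genes, and higher 6, against 14.2%, over 7 libraries. Dnajc15, a J-domain protein of the mitochondrial inner membrane, was lower, at -1.42 (SE 0.10, adjusted p 5.35e-08). Over all libraries it stood at 72.2 to 138 CPM in CD4 T cells and 145 to 282 CPM in CD8 T cells. The lowest value of each type came from the non-treated library, which was not in this test. Hspe1 (-0.90), Hspd1 (-0.83) and Hspa9 (-0.75), the mitochondrial Hsp70, were lower in 7 of 7 libraries, which makes 4 of 9 mitochondrial chaperones lower and 0 higher. All 7 tested subunits of the cytosolic CCT chaperonin were lower too. Hspa1a, Hspa1b and Dnajb1 were not called, Hsph1 was at -0.62 (adjusted p 0.00554), and 11 of 15 immediate early genes were higher in CD4 T cells. The highest member was Dnajb13 (1.52, SE 0.21), followed by Hspa2 (1.39, in 5 of 7 libraries) and Dnajb14 (1.01), with Hspa13 at 0.58 and Dnajc10 at 0.50, and Hspbp1 was lower at -1.02 and Dnajb4 at -0.83 (adjusted p 0.0417). The calls of Hspa2, Hspa13 and Dnajb4 were lost without combination ACT at day 5. Those of Hspa13 and Dnajb4 were also lost without untransduced ACT at day 5, that of Hspa13 without day 26, and that of Dnajb4 without PD1d/IL-33 ACT or untransduced ACT at day 12.

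**Figure D4:**
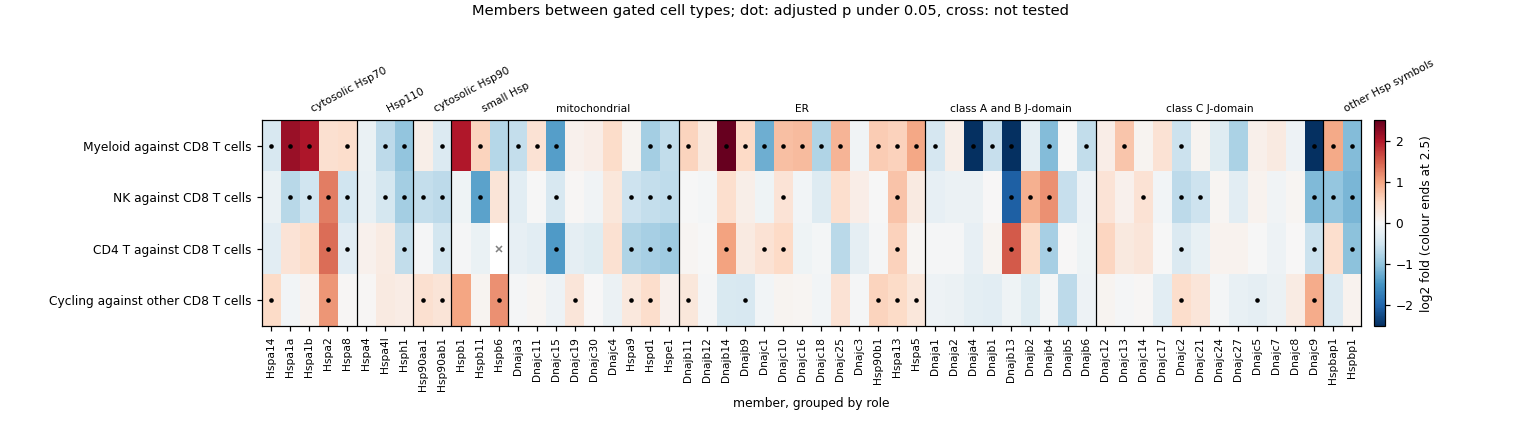
Log2 fold of each member (columns, grouped by role) in 4 contrasts (rows): myeloid, NK and CD4 T against CD8 T cells, and cycling against other CD8 T cells. A dot marks an adjusted p under 0.05, a cross a member not tested, and the color scale ends at 2.5. In myeloid cells 9 of 13 ER chaperones were called higher and 2 lower, against 30.6% of all genes higher and 35.8% lower. Called lower were 4 of 9 mitochondrial chaperones in myeloid (against 35.8% of all genes, with 1 higher), NK (20.4%) and CD4 T cells (13.1%). The 3 contrasts of types share their CD8 T cells.

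Within CD8 T cells, those with a UMI of the proliferation genes Mki67 or Top2a were compared with the others over 6 libraries. Higher in cycling cells were 14 of 58 members, against 15.4% of 9677 genes, and lower were 2, against 15.7%. The largest were Hspb6, a small heat shock protein (1.14, adjusted p 0.0247, lost without combination ACT at day 5), and Hspa2 (1.10, adjusted p 0.00659). Dnajc9 was higher at 0.93 (SE 0.08, adjusted p 5.36e-08, in 6 of 6 libraries), Hsp90b1 at 0.55 (SE 0.06, adjusted p 2.81e-07), Hspa14 at 0.48, Hspd1 at 0.45, Hsp90aa1 at 0.41, Hsp90ab1 at 0.32 and Hspa5 at 0.28. Lower were Dnajb9 (-0.40, adjusted p 0.0116) and Dnajc5, a J-domain protein of secretory vesicles (-0.22, adjusted p 0.0418), and both calls were lost without combination ACT at day 12. That of Dnajc5 was also lost without the same ACT at day 5 or day 26, or without untransduced ACT at day 5. DESeq2 called 11 members, without Hspb6, Dnajb9, Dnajc5, Hspa9 and Hspa13. Hspa1a and Hspa1b were not called and their sign turned with the libraries left out. Both Hsp90 genes of the cytosol and 4 of 13 ER chaperones were thus called higher in cycling cells by edgeR.

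CD8 T cells with an Hspa1a UMI, after thinning to 2000 UMIs, were compared with those without it in the 4 libraries with enough such cells, a comparison added after the levels had been seen. Hspa1a itself was left out, and Hspa1b cannot be separated from it. Of 41 members tested, 6 were higher, against 0.379% of 6330 genes, and 0 lower, against 0.616%. Hspa1b was at 4.0 (SE 0.15), Dnajb1 at 1.73 (SE 0.15, adjusted p 1.17e-27), Hsp90aa1 at 1.45 (SE 0.11, adjusted p 1.46e-34), Hsph1 at 1.44 (SE 0.17, adjusted p 4.22e-15), Hspe1 at 0.67 (SE 0.12) and Hspa8 at 0.42 (SE 0.10, adjusted p 0.00248), each higher in 4 of 4 libraries. The calls of Hspe1 and Hspa8 were lost without PD1d/IL-33 ACT, that of Hspe1 also with DESeq2, and that of Hspa8 also without PD1d/IL-2v ACT or day 26. All 6 belong to the stress-inducible list, of which 10 were tested. That list was chosen with earlier results of these data known, and it also holds Hspa8, described above as constitutive. None of 18 genes of the unfolded protein response, 0 of 8 ER chaperones and 0 of 7 CCT subunits were called by edgeR. Of 14 immediate early genes 5 were higher, with Fos at 1.55 and Jun at 1.51. Jun was higher in 4 of 4 libraries and Fos in 3 of 4, with -0.33 in the other.

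Before thinning, CD8 T cells with and without an Hspa1a UMI had median depths of 6250 and 5877 UMIs, median mitochondrial shares of 2.90% and 2.88% and cycling shares of 23.5% and 23.8%. Summed over each set with all libraries pooled, immediate early genes came to 2935 and 2985 CPM, and 4 macrophage markers to 20.3 and 21.3 CPM. These pooled sums are not comparable with the calls above, which compared thinned cells within libraries. The 242 cells with 5 or more Hspa1a UMIs, which held 3079 of the 3895, were deeper, at a median of 7061 UMIs, with a cycling share of 29.8% and a mitochondrial share of 2.74%. The part of depth and cycling in the Hspa1a counts of these cells was not tested.

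Myeloid cells split in the same way over 5 libraries gave 8 of 29 members higher, against 0.433% of 3692 genes, and 0 lower, against 0.19%. Hspa1b was at 4.51, Hsph1 at 3.07 (SE 0.32, adjusted p 3.58e-06), Hsp90aa1 at 1.83 (SE 0.16, adjusted p 1.58e-07), Dnajb1 at 1.54, Dnaja1 at 1.25, Hspe1 at 0.86 and Hsp90ab1 at 0.58. Hspb1 was at 6.20 (SE 0.88), but its UMIs came from few cells and it was higher in 3 of 5 libraries. The calls of Hspe1 and Hsp90ab1 were lost without PD1d/IL-2v ACT, day 26 or untransduced ACT at day 5, and that of Dnajb1 without either of the first 2 of these. DESeq2 called 5 members, without Hspb1, Hspe1 and Hsp90ab1. By edgeR, Hsph1, Hsp90aa1, Dnajb1 and Hspe1 were called in both types, of which DESeq2 called Hspe1 in neither. Hspa1b was called in both too, but it cannot be separated from the Hspa1a used for the split. In myeloid cells 0 of 7 ER chaperones and 0 of 15 genes of the unfolded protein response were called.

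**Figure D5:**
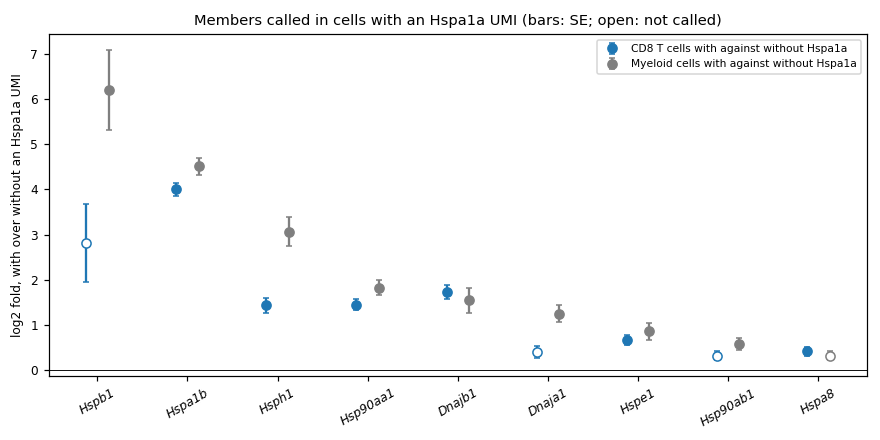
Log2 fold (y axis) of 9 members (x axis) between cells with and without an Hspa1a UMI after thinning. Values are for CD8 T cells (blue, 4 libraries) and myeloid cells (grey, 5 libraries). Bars give 1 SE, and open symbols mark an adjusted p of 0.05 or more. Hsph1, Hsp90aa1 and Dnajb1 lie above 1 in both types, as does Hspa1b, which cannot be separated from Hspa1a.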

How the data were processed

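Single-cell 5′ RNA libraries were made from sorted tumor leukocytes, and the authors deposited 1 matrix of raw UMI counts per gene and barcode for 8 libraries, aggregated with Cell Ranger (version 2.2.0 and build GRCm38 in the submitters' processing notes). Cells with 500 to 6000 genes, 2000 to 40000 UMIs, 5% to 60% ribosomal and under 10% mitochondrial counts were kept. Gates required raw UMIs of Cd3 genes with Cd8a or Cd8b1, of Cd3 genes with Cd4, of Ncr1 or Klrb1c without Cd3, or of at least 2 of Lyz2, Csf1r, Cd68, Cd14 and C1qa. No doublet caller was run, and leaving out the 5% of cells with most UMIs was an alternative. CPM carry exact 95% Poisson intervals. Ratios between libraries were taken after adding 10 CPM, for genes with at least 50 UMIs in both groups together, with intervals combined from the Poisson limits (a conditional interval had been planned). Intervals cover counting error only. Sums per library and type with at least 20 cells were tested with edgeR 4.0.16 (quasi-likelihood, library as a block, Benjamini-Hochberg over all genes), with DESeq2 1.42.0 as an alternative, in R 4.3.3; other steps used Python 3.11.15, numpy 2.4.6, scipy 1.17.1, pandas 2.3.3 and matplotlib 3.10.9. Scripts were tested on simulated data. Samples are single pools. The p-values of edgeR rest on a spread estimated with information shared over genes, and the SE were derived from the same test. They therefore do not measure the spread of 1 gene between these libraries. Fos in CD8 T cells split by Hspa1a had an adjusted p of 3.29e-11 by edgeR's test, with libraries from -0.33 to 2.16.

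Members named are those of a stress-inducible list and the 12 with most UMIs, those past 2-fold between libraries, the 5 called members with the largest changes in each direction in each contrast, and those nearest the limit of 50 UMIs. Other genes appear as counts of fixed lists with up to 3 examples. Members and lists were chosen with earlier results of these data known. Some results on genes outside the members are not reported here.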

Additional observations from a re-analysis of the deposited data

Results flagged for a closer look

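Within the contrasts of cell types and of cells with and without Hspa1a, 13 of 72 sets of per-library log2 ratios held a library far from the others. The rule flags about 1 in 20 by chance only if libraries have equal spread and sets are independent. Neither holds here, so the excess cannot be read against that rate. All flags fell in the libraries with the fewest barcodes: non-treated, untransduced ACT at day 12 and PD1d/IL-33 ACT. In non-treated tumors, with 29 myeloid and 69 CD8 T cells, the ratio of myeloid to CD8 T cells stood apart for 6 members. It was 6.14 for Hspa1a (1.21 to 2.33 in the other libraries), 4.54 for Hspa1b (1.49 to 2.04), 1.08 for Hsph1 (-1.65 to -0.49) and 0.64 for Hspe1 (-1.0 to -0.53). It was -2.11 for Dnajc1 and -3.00 for Hspbap1, which stood at 0 CPM in those myeloid cells. A single cell held 68.7% of the Hspa1a UMIs of those 29 cells. In PD1d/IL-33 ACT the same ratio was -0.89 for Dnaja1.

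In untransduced ACT at day 12, with 50 NK and 37 CD8 T cells, the ratio of NK to CD8 T cells was -4.99 for Hspb11, 2.36 for Hspa13, -1.48 for Dnajb2 and 0.13 for Hsp90aa1, each apart from the other 7 libraries. Hspb11 stood at 0 CPM and Dnajb2 at 4.57 CPM in those NK cells, and Hspa13 at 4.11 CPM in those CD8 T cells. The ratios of these genes thus rest on very few UMIs. In PD1d/IL-33 ACT, Dnajc10 was at 1.45 between CD4 and CD8 T cells (0.22 to 0.50 elsewhere). Hsp90aa1 was at 1.94 between CD8 T cells with and without an Hspa1a UMI in that library (1.07 to 1.15 in the other 3).

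Of 337 sets of a member and a comparison of libraries, 3 were past 2-fold in opposite directions in different types, and the difference between types was not tested. For PD1d/IL-33 against PD1d/IL-2v ACT, Hspa1a was at 2.22 in CD4 T cells and -1.81 in NK cells. For untransduced ACT at day 5 against non-treated tumors, Hspa1a was at 2.08 in NK cells and -2.29 in myeloid cells. For combination against untransduced ACT at day 5, Hspb1 was at 1.31 in NK cells and -1.81 in myeloid cells, and 1 NK cell held 69 of the 115 Hspb1 UMIs of its library's NK cells.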

How the results depend on the processing

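Conditions and days could not be compared in pairs because each is 1 library, and for the same reason no library could be left out of a comparison of libraries. The contrasts of types, of cycling cells and of cells split by Hspa1a were paired by library. Of the counts of members recomputed under alternatives, 152 stayed within 1.5 times the reported count and 14 did not. Only counts were compared here, so the members behind an unchanged count could differ. Between untransduced ACT at day 5 and non-treated tumors, Dnajc2 under the later filter and Dnajc19 after thinning took the place of Hspa1a. With 1 CPM added in place of 10, members past 2-fold numbered 2 between combination and untransduced ACT at day 5 (reported 0), 3 between days 12 and 5 (reported 0), 1 between days 26 and 12 (reported 0) and 2 between untransduced ACT at day 5 and non-treated tumors (reported 1), the last also 2 without the 5% of cells with most UMIs. Thinning gave 3 in the first of these, and 14 in place of 22 members with the larger difference between runs, with fewer members reaching the UMI minimum. Between combination and untransduced ACT at day 12, 2 of 4 members remained without cycling cells, and against PD1d/IL-33 ACT the later filter left 1 of 3. TMM scaling moved the median of all genes by 0.13, 0.10, 0.12 and -0.11 in the comparisons of the combination at day 12 with untransduced and PD1d/IL-2v ACT, with day 5 and of day 26 with day 12, and gave 1 member in the last (reported 0). For the combination against PD1d/IL-33 ACT at day 12 it moved that median by 0.10, and the same 3 members stayed past 2-fold lower.

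Leaving out each library in turn gave 31 to 37 called members for myeloid, 20 to 25 for NK, 14 to 18 for CD4 T and 14 to 17 for cycling cells. It gave 4 to 8 in CD8 T and 4 to 8 in myeloid cells split by Hspa1a, where DESeq2 called 5 in myeloid cells (reported 8). In cycling cells, where neither was called, Hspa1a ranged from -0.28 to 0.12 and turned to 0.023, 0.12 and 0.023 without PD1d/IL-2v ACT, day 26 or combination ACT at day 5, and Hspa1b ranged from -0.064 to 0.32 and turned to -0.064 and -0.033 without PD1d/IL-33 ACT or untransduced ACT at day 5. Causes were not tested. Depth limits the non-treated and untransduced day 12 libraries most, where 3 UMIs in CD8 T cells equal 7.75 and 12.3 CPM for Hspa1a.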

Other observations

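CD8 T cells with an Hspa1a UMI also differed from those without in genes outside the chaperones, chosen here after their values were seen. By edgeR's quasi-likelihood test, 18 such genes were higher and 39 lower. Among the lower ones were the granzyme genes Gzmc (-2.83, adjusted p 1.63e-13) and Gzma (-1.05), Pdcd1, which encodes PD-1 (-0.95, adjusted p 4.89e-06), and Ctla4 (-0.92), each in 4 of 4 libraries. Among the higher ones was Klf2, a factor of resting T cells (0.83, adjusted p 1.31e-06). Ccr7, which the paper counts among stemness-related genes, went the other way and was lower (-1.44, adjusted p 0.000293, in 4 of 4 libraries). Whether these cells were at rest was not tested.

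In myeloid cells split in the same way, 8 genes outside the chaperones were higher and 7 lower. Hmox1, which encodes heme oxygenase, was higher at 1.40 in 5 of 5 libraries. Lower were Il1b, an inflammatory cytokine (-0.93, in 5 of 5 libraries), and the calprotectin subunit S100a9 (-2.69, in 4 of 5 libraries).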
